A study of Mus musculus with 4 samples.

Results

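The matrix metalloproteinases (MMP), the ADAM and ADAMTS proteases and the tissue inhibitors of metalloproteinases (TIMP) were followed in 2 sub-lines of one mouse mammary carcinoma line. Members were all probes other than controls whose gene name on the array begins with Mmp, Adam or Adamts followed by a digit, or is Timp1, Timp2, Timp3 or Timp4. This gave 123 probes on 132 spots, for 70 of the 27962 gene names and 123 of the 41174 probes on the array. There were 28 probes of 21 Mmp genes, 50 of 28 Adam genes, 39 of 17 Adamts genes and 6 of the 4 Timp genes. The rule itself used gene names only, but it was chosen with earlier results of these data known. The tested sub-line, 4T1-S, which the title of the series calls highly immunogenic, was set against the sub-line 4T1-A, with 2 arrays each. Both are named as derivatives of 4T1, a line from a spontaneous mammary carcinoma of a BALB/c mouse that is widely used as a model of metastatic breast cancer. No treatment, time point or genetic change is given for either sub-line, and a cell line lacks the stroma that surrounds a tumour. The sub-lines occupied different positions of 1 slide, so position and sub-line cannot be told apart. It is not stated whether separate cultures were used for the 2 arrays of either sub-line, and each p-value therefore reflects array-to-array spread that may be technical only.

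MMPs are zinc-dependent endopeptidases that are mostly secreted as inactive precursors and cleave collagens, laminins and other matrix proteins, while the membrane-type members stay at the cell surface. ADAMs are transmembrane proteins, many of which release the outer domains of growth factors, cytokines and adhesion molecules, and ADAMTS proteases are secreted, bind matrix through thrombospondin repeats and cleave proteoglycans or procollagens. TIMPs bind the active site of these enzymes and block it. In mammary carcinomas, stromal cells are known to make much of the secreted MMP, and a carcinoma line lacks these cells.

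Several secreted MMP genes lie side by side on mouse chromosome 9 and carry a TATA box and an AP-1 motif, the target of Fos and Jun factors, near their start sites. The promoter windows of genes described below are shown because they display this motif beside genes that lack it. Each runs from 250 bases before to 50 after the start site, was taken from RefSeq for GRCm38.p6, and is written 5′ to 3′ on the gene's own strand. Capitals mark the AP-1 motif TGANTCA, a palindrome for which both strands give the same match.
Mmp3, chr9:7445572-7445871, plus strand: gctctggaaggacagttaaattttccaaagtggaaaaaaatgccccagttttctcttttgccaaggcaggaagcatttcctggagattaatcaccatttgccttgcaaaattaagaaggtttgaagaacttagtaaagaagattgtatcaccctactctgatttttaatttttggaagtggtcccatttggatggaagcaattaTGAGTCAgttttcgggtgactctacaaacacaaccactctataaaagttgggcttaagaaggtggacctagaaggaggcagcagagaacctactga
Mmp1a, chr9:7463891-7464190, plus strand: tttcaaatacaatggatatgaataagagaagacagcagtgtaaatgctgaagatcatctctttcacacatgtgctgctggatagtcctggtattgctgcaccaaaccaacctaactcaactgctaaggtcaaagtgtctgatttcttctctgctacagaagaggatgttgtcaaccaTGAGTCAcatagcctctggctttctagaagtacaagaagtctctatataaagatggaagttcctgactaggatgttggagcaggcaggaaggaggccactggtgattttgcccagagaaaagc
Mmp10, chr9:7502092-7502391, plus strand: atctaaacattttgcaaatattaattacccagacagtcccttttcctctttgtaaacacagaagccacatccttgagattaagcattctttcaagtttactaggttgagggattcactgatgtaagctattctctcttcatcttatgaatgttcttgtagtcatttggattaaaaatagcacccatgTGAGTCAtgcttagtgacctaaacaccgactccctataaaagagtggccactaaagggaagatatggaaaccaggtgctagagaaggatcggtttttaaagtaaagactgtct
Mmp13, chr9:7272264-7272563, plus strand: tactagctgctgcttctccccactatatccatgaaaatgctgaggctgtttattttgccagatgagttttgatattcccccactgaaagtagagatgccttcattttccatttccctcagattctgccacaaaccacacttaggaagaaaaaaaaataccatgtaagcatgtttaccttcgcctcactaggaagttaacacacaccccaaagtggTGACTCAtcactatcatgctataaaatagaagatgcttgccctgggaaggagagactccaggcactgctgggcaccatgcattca
Mmp15, chr8:95352046-95352345, plus strand: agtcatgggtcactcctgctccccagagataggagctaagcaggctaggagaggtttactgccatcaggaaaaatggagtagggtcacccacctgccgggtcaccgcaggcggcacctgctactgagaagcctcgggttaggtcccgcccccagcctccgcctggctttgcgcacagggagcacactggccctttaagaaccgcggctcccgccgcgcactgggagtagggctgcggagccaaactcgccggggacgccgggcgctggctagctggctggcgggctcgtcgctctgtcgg
Adamts9, chr6:92943485-92943784, minus strand: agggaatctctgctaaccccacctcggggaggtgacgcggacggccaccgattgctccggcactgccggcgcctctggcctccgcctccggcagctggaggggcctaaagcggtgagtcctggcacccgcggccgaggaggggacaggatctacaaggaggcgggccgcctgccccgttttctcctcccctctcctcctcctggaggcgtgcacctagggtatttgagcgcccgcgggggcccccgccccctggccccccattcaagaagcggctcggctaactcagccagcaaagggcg

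The AP-1 motif began 46 bases before the start site in Mmp3, 73 in Mmp1a, 63 in Mmp10 and 35 in Mmp13, and the letters TATAAA on the gene's strand or its complement were also found in each of these 4 windows. The windows of Mmp15 and Adamts9 held neither motif. RefSeq windows were matched for 40 of the 70 member genes, with 45 windows in all. The AP-1 motif was in 11 of these 45 (24.4%), against 2565 of all 32851 windows of the table (7.81%). TATAAA was in 11 of the 45 as well (24.4%), against 13.6% of all windows. Neighbouring Mmp genes are related by duplication, so these windows are not independent, and their share was not tested. A match describes these letters only and says nothing of binding in 4T1-S or 4T1-A.

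Fewer member probes than array probes in general gave a signal. A probe counted as detected when the scanner software called it well above background. Of the 123 member probes, 49 were detected on each 4T1-S array (39.8%), against 50 (40.7%) and 54 (43.9%) on the 4T1-A arrays. Over all probes on the array, detection ran the other way, with 59% and 57.9% on the 4T1-S arrays, against 54.7% and 56% on the 4T1-A arrays. A total of 63 member probes (51.2%) were detected on none of the 4 arrays, against 36.5% of all probes, and 40 (32.5%) were detected on all of them, against 50.7%. The undetected probes were 13 of 28 for Mmp, 26 of 50 for Adam, 24 of 39 for Adamts and 0 of 6 for Timp genes. No probe of 25 genes was detected on any array, and these were Mmp12, Mmp16, Mmp19, Mmp20, Mmp21, Mmp23, Mmp24, Mmp25, Mmp28, Adamts6, Adamts13, Adamts15, Adamts16, Adamts19, Adamts20, Adam1a, Adam1b, Adam2, Adam4, Adam5, Adam6, Adam7, Adam29, Adam30 and Adam32. Adam2, Adam5 and others of this group are known from sperm, and Mmp20 from tooth enamel. No member spot was saturated.

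A probe was tested if 4T1-S or 4T1-A had it detected on both of its arrays, and this held for 51 member probes of 38 genes. Levels are given as the processed signal divided by the 75th percentile of its array, and differences as log2 of 4T1-S minus log2 of 4T1-A with their standard error (SE). After Benjamini-Hochberg adjustment over all 23690 probes tested, limma called 1 member probe higher in 4T1-S (Mmp15) and 5 lower (Mmp3, Mmp10, Mmp1a, Adamts5 and Adamts9), and 45 did not pass at 0.05. At an unadjusted p under 0.05 there were 23, with 12 higher and 11 lower, against 6011 of all 23690 probes tested, with 4135 higher and 1876 lower. The members called were 11.8% of those tested, against 4.52% of all probes tested, of which 2.17% were higher and 2.35% lower. Of the 6, Mmp3, Mmp10 and Mmp15 were detected on all 4 arrays. Mmp1a, Adamts5 and Adamts9 entered the test through 4T1-A alone, a route that favours lower values in 4T1-S. The 51 differences had a median of 0.17 and ran from -2.86 to 1.55, and the median over all probes tested was 0.11. Both 4T1-S arrays lay above both 4T1-A arrays for 22 member probes (43.1%), against 37.8% of all probes tested, and below them for 16 (31.4%), against 18.7%.

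**Figure D1:**
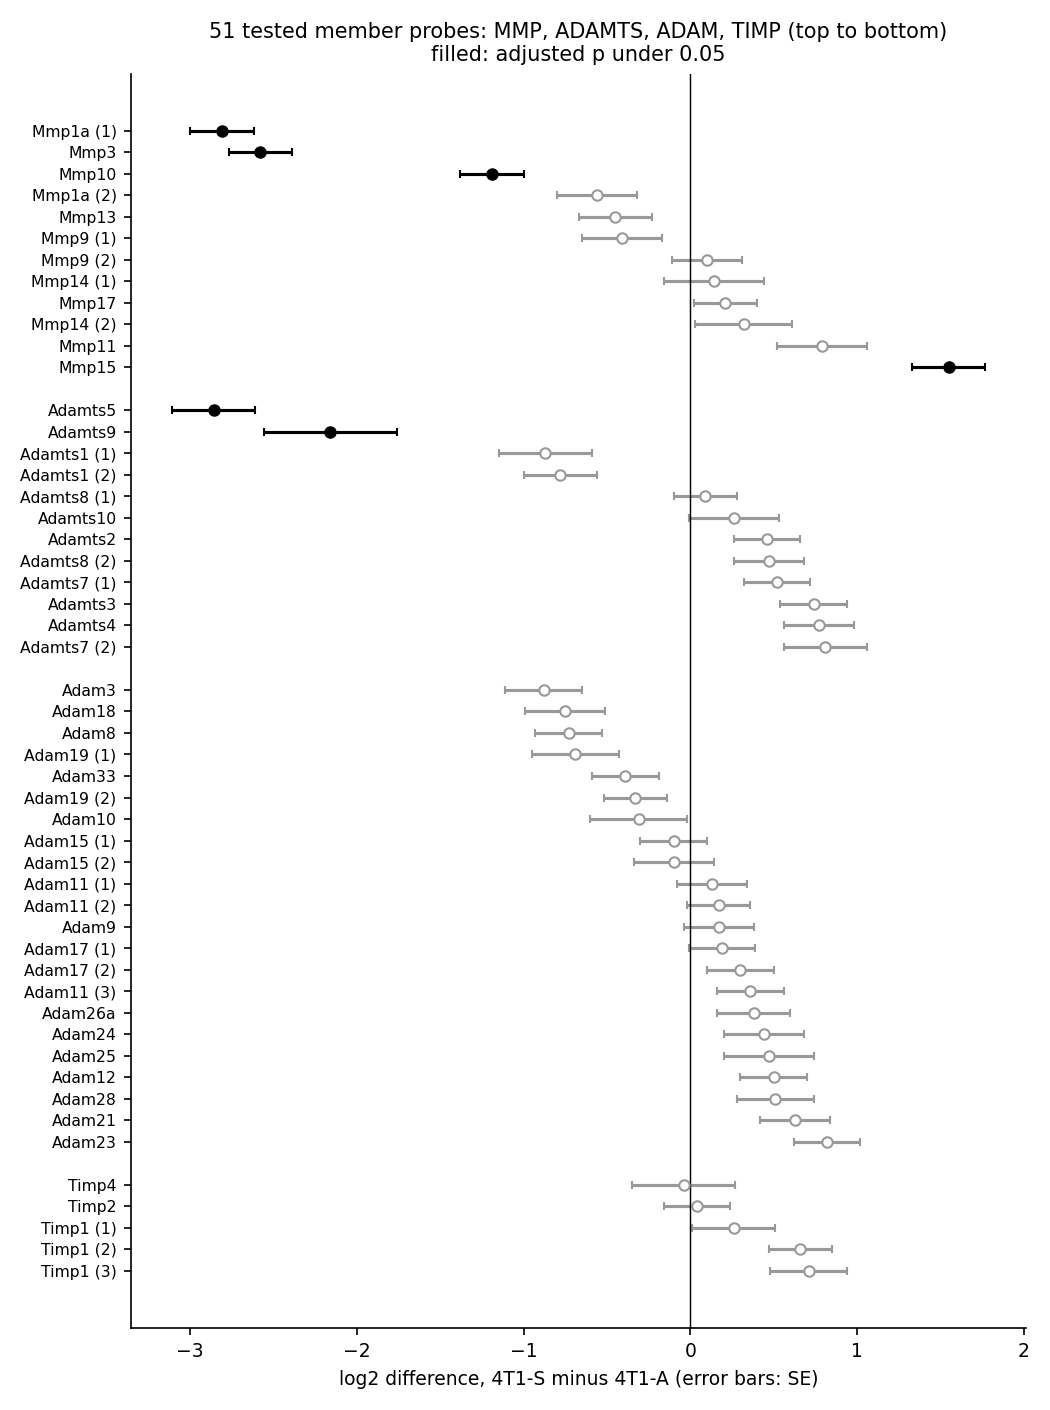
Log2 difference, 4T1-S minus 4T1-A, of each of the 51 tested member probes, with error bars of 1 SE, in the order MMP, ADAMTS, ADAM and TIMP from top to bottom. Filled points had an adjusted p under 0.05: 1 lies right of 0 (Mmp15, 1.55) and 5 lie left of it, down to -2.86 for Adamts5, and no ADAM or TIMP probe is filled.

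Among the stromelysins, which cleave a broad range of matrix proteins and activate other MMP precursors, Mmp3 and Mmp10 were lower in 4T1-S and Mmp11 did not pass. The Mmp3 probe read 1.54 and 1.45 in 4T1-S, against 8.73 and 9.07 in 4T1-A. Both 4T1-S arrays lay far below both 4T1-A arrays, and the arrays of a sub-line differed little. The difference was -2.58 ± 0.19 (SE, 95% interval -3.01 to -2.14), a 5.96-fold lower level, with adjusted p = 0.000359 in limma. Mmp10, stromelysin-2, read 1.26 and 1.08 in 4T1-S, against 2.61 and 2.71 in 4T1-A. These groups were likewise separate, with a difference of -1.19 ± 0.19 (SE, 95% interval -1.64 to -0.74, 2.28-fold lower) and a limma adjusted p of 0.0171. Without 4T1-S replicate 1 the adjusted p for Mmp10 was 0.0575, and without 4T1-S replicate 2 it was 0.123. Mmp11, stromelysin-3, which is known mainly from the stroma of carcinomas and cleaves little of the classical matrix, went the other way. It read 4.64 and 5.93 in 4T1-S, against 2.42 and 3.78 in 4T1-A, without overlap, and its difference of 0.79 ± 0.27 had a limma adjusted p of 0.126.

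The collagenases, which cut fibrillar collagen, were close to the detection limit. Mmp1a, the mouse relative of human interstitial collagenase, has 2 probes. Probe A_51_P185688 read 0.0146 and 0.014 in 4T1-S, against 0.0975 and 0.103 in 4T1-A. It was not well above background on either 4T1-S array and was so on both 4T1-A arrays, which puts the 4T1-S level lower by at least 1.75-fold. The measured difference of -2.81 had a limma adjusted p of 0.000262. For this bound the 4T1-S level on each array was raised to the lowest signal of any probe above background there, where the probe itself read less. Bounds here and below hold for the software's own background subtraction only. An adjusted p beside a bound is that of the measured difference. Probe A_52_P549223 read 0.0801 and 0.0528 in 4T1-S, against 0.093 and 0.0986 in 4T1-A, and was above background on 1 of the 4T1-S arrays. Its groups did not overlap, but the difference of -0.56 ± 0.24 did not pass (adjusted p = 0.203). Only the first probe was called, and since it has only a bound in 4T1-S, how far the probes differ was not measured. Mmp1b, a gene related to Mmp1a by duplication, lies on the same chromosome, and no probe of it was used here. Mmp13, collagenase-3, read 0.0901 and 0.082 in 4T1-S, against 0.101 and 0.136 in 4T1-A (difference -0.45 ± 0.22, limma adjusted p = 0.248). Mmp8, the collagenase known from neutrophils, was detected on 1 array of each sub-line and was not tested.

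Of the gelatinases, which cleave denatured collagen and type IV collagen of basement membranes, Mmp9 was detected on all 4 arrays. Its probe A_52_P507214 read 4.86 and 3.85 in 4T1-S, against 4.16 and 3.92 in 4T1-A, with overlapping groups. The difference of 0.10 ± 0.21 (95% interval -0.38 to 0.58) had a limma adjusted p of 0.803, so a difference within that interval could not be told from 0 on these arrays. The other Mmp9 probe read 0.974 and 0.655 in 4T1-S, against 1.14 and 0.992 in 4T1-A, a difference of -0.41 ± 0.24 (adjusted p = 0.328), so the probes differed in sign. Mmp2, the gelatinase typical of fibroblasts, was above background on 4T1-A replicate 1 alone and was not tested. It read 0.0139 and 0.0132 in 4T1-S, against 0.0751 and 0.0119 in 4T1-A, so 1 array decided its mean. Neither Mmp7, matrilysin, nor Mmp12, the macrophage metalloelastase, was tested, with Mmp7 detected on 1 4T1-S array only.

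The membrane-type MMPs held the one rise. Mmp15, a transmembrane protease, read 0.293 and 0.258 in 4T1-S, against 0.0806 and 0.109 in 4T1-A. Both 4T1-S arrays were clearly above both 4T1-A arrays, with a difference of 1.55 ± 0.22 (95% interval 1.04 to 2.07, 2.94-fold higher) and a limma adjusted p of 0.00929. Without 4T1-S replicate 1 the adjusted p was 0.0591 and without 4T1-S replicate 2 it was 0.0528, and normexp background correction gave a smaller difference of 0.89 (adjusted p = 0.0312). Mmp14, the surface collagenase that activates the Mmp2 precursor, did not pass with either probe. Its stronger probe read 19.1 and 17.3 in 4T1-S, against 22.5 and 12 in 4T1-A, so both 4T1-S arrays lay between the 4T1-A arrays. The difference was 0.14 ± 0.30 (95% interval -0.56 to 0.85, adjusted p = 0.8), and the other probe gave 0.32 ± 0.29 (adjusted p = 0.536). Mmp17, anchored by a lipid tail, gave 0.21 ± 0.19 (adjusted p = 0.521), and Mmp16, Mmp24 and Mmp25 were not detected.

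**Figure D2:**
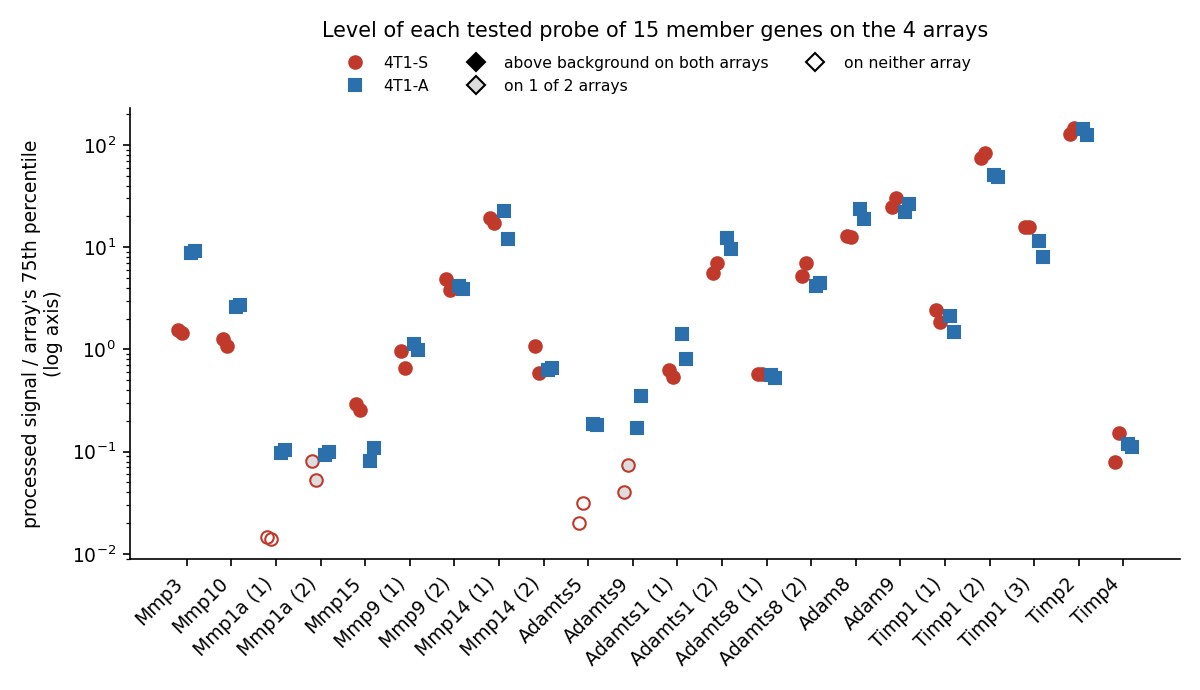
Processed signal over the array's 75th percentile, on a log axis, of each tested probe of 15 member genes, with 4T1-S arrays (circles) left of 4T1-A arrays (squares) and 1 point per array. Filled points were detected on both arrays of the sub-line, grey points on 1 and open points on neither. Mmp3 lies at 1.54 and 1.45 in 4T1-S, against 8.73 and 9.07 in 4T1-A, while Timp2 overlaps at 129 and 146 against 143 and 125.

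Along chromosome 9, RefSeq lists 10 Mmp genes in the order Mmp13, Mmp12, Mmp1b, Mmp3, Mmp1a, Mmp10, Mmp8, Mmp27, Mmp20 and Mmp7, and 8 of them have a probe used here. The 3 called lower, Mmp3, Mmp1a and Mmp10, follow each other directly in this order. Mmp1a stands there by its first probe, which entered the test through 4T1-A alone and lost its call with normexp correction (limma adjusted p = 0.135), while its other probe was not called. Mmp13 at one end did not pass, and Mmp12, Mmp8, Mmp20 and Mmp7 were not tested because too few arrays detected them. Whether the fall extends past these 3 genes could therefore be read only for Mmp13. The windows printed for these 3 genes each hold the AP-1 motif, as does that of Mmp13. It was also found in windows of Mmp12, Mmp20 and Mmp7, which are not printed, and not in that of Mmp8. Among the genes with the motif, Mmp13 did not pass, while Mmp12, Mmp20 and Mmp7 could not be called because they were not tested. No window was matched for Adamts5, also called lower, and that of Adamts9 held no such motif. Whether the motif goes with a lower level was not tested.

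**Figure D3:**
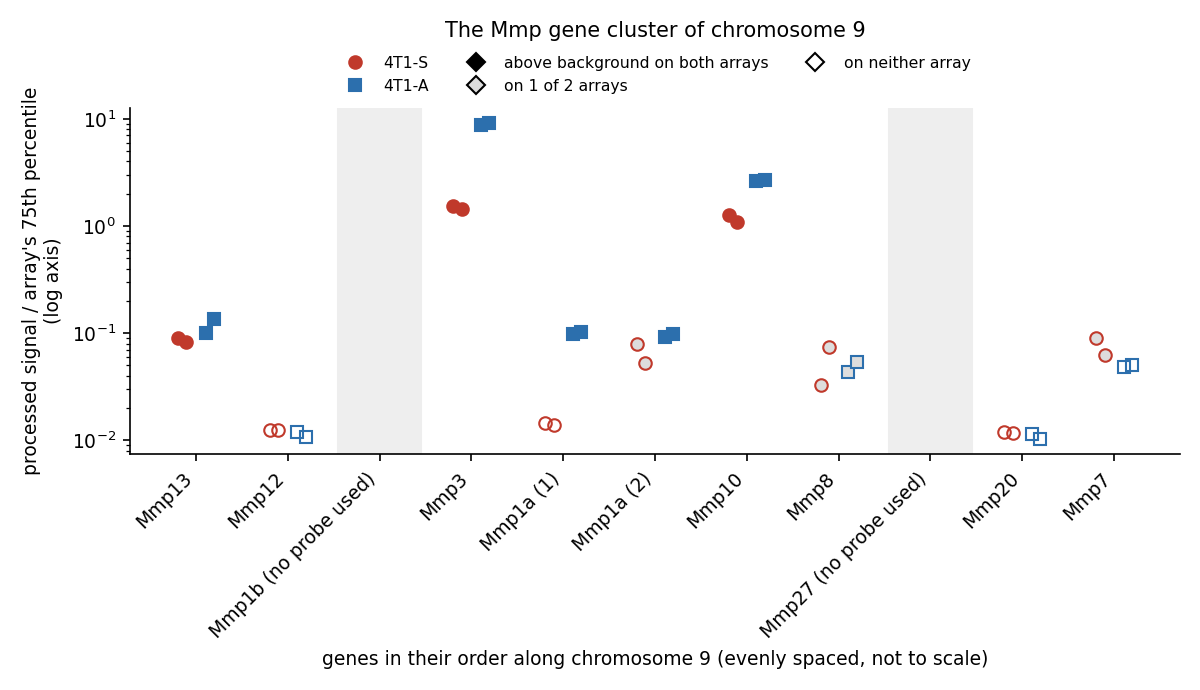
Processed signal over the array's 75th percentile, on a log axis, for the Mmp genes in their order along chromosome 9, with 4T1-S arrays (circles) left of 4T1-A arrays (squares). Filled points were detected on both arrays of the sub-line, grey points on 1 and open points on neither, and shaded places have no probe used. Mmp3 and Mmp10 are detected in both sub-lines and lower in 4T1-S, and Mmp1a (probe 1) is detected in 4T1-A only.

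Of 7 tested probes for ADAMTS proteases that cleave the proteoglycans aggrecan and versican, 2 were called lower and 0 higher. Of all 12 ADAMTS probes tested, 0 were higher, against 2.17% of all probes tested, and the same 2 were lower, against 2.35%. The median difference of the 12 was 0.36. Both lower ones entered the test through 4T1-A alone. Adamts5, a main aggrecanase of mouse cartilage, read 0.0202 and 0.0315 in 4T1-S, against 0.185 and 0.181 in 4T1-A with probe A_51_P233534. Neither 4T1-S array detected it, and the 4T1-S level was lower by at least 3.2-fold with the software's own background subtraction. The measured difference of -2.86 had a limma adjusted p of 0.000835. A second Adamts5 probe was detected on no array. Adamts9, which cleaves aggrecan and versican, read 0.0404 and 0.0738 in 4T1-S, against 0.171 and 0.35 in 4T1-A with probe A_52_P49321. The groups were separate, but the arrays of each sub-line differed widely, and only 1 of the 4T1-S arrays was above background. The difference was -2.16 ± 0.40 (SE, 95% interval -3.09 to -1.24) with a limma adjusted p of 0.0269, and without 4T1-S replicate 1 the adjusted p was 0.11. The other 2 Adamts9 probes were detected on no array.

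The values of the 3 faint probes were smaller under another background correction. Normexp correction replaced the software's own subtraction, with an offset of 50 intensity units added to each signal. An added offset alone brings faint log2 values closer together, so the part of the correction itself was not tested. Under this setting, the difference was -0.68 for Adamts5 (limma adjusted p = 0.0594), -0.83 for Adamts9 (0.126) and -0.45 for Mmp1a (0.135). With all probes of a gene averaged, it was -1.22 for Adamts5 (adjusted p = 0.0158), -0.98 for Adamts9 (0.0349) and -1.68 for Mmp1a (0.00384). Mmp3 stayed between -2.87 and -2.42 under the 14 alternatives run, with a highest adjusted p of 0.014.

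**Figure D4:**
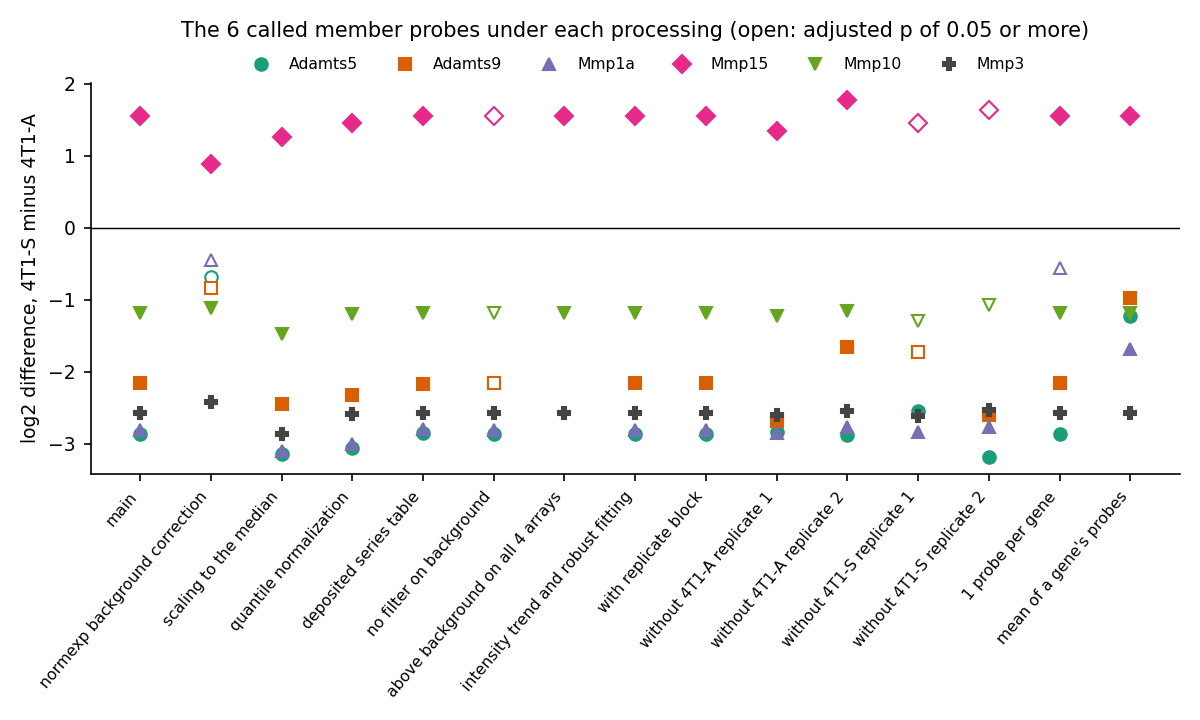
Log2 difference, 4T1-S minus 4T1-A, of the 6 called member probes under the processing used and 14 alternatives, with open symbols where the adjusted p was 0.05 or more. With 1 probe per gene, Mmp1a is represented by its other probe. Mmp3 is filled throughout, between -2.87 and -2.42, while Mmp1a, Adamts5 and Adamts9 lie between -0.83 and -0.45 and are open under normexp background correction.

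Adamts1, which cleaves aggrecan and versican and is the neighbour of Adamts5 on chromosome 16, read 5.64 and 7.07 in 4T1-S, against 12.3 and 9.62 in 4T1-A with its stronger probe. The groups did not overlap, yet the difference of -0.78 ± 0.22 missed the threshold (limma adjusted p = 0.0918), and the second probe gave -0.87 ± 0.28 (0.12). Scaling by the array median in place of the 75th percentile brought the stronger probe past it (-1.08, adjusted p = 0.0435), and leaving out 4T1-A replicate 2 did so for the second probe (-1.27, 0.0101) but not for the stronger one (-0.96, 0.0545). Adamts4, another aggrecanase, read 0.361 and 0.309 in 4T1-S, against 0.175 and 0.22 in 4T1-A, with a difference of 0.77 ± 0.21 (adjusted p = 0.0863). Adamts8 read 5.23 and 6.94 in 4T1-S, against 4.21 and 4.51 in 4T1-A, with a difference of 0.47 ± 0.21 (adjusted p = 0.224), and 0.09 ± 0.19 (0.807) with its second probe. Within this subgroup, then, Adamts1 and Adamts4 differed in sign, and neither passed.

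Of the procollagen N-propeptidases, which trim the amino-terminal propeptide from fibrillar procollagens, 2 probes were tested and 0 passed. Adamts2 differed by 0.46 ± 0.20 (limma adjusted p = 0.197) and Adamts3 by 0.74 ± 0.20 (0.0854). In each, both 4T1-S arrays lay above both 4T1-A arrays, as they did for 37.8% of all probes tested. Of the remaining ADAMTS genes, Adamts7, which cleaves the cartilage protein COMP, gave 0.52 ± 0.20 (0.158) and 0.81 ± 0.25 (0.109) with its 2 probes, and Adamts10, which is linked to fibrillin fibres, gave 0.26 ± 0.27 (0.587). An unadjusted limma p under 0.05 was found for 9 of the 12 ADAMTS probes, 5 higher and 4 lower. Of all 23690 probes tested, 6011 had such a p, 4135 higher and 1876 lower.

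No ADAM probe passed among the 22 tested from 17 genes, against 4.52% of all probes tested. At an unadjusted p under 0.05 there were 7, of which 3 were higher and 4 lower, against 6011 of all 23690 probes tested. The 22 differences ran from -0.88 to 0.82 with a median of 0.17. The widely expressed sheddases had 12 tested probes with a median of -0.10. Adam9, a sheddase also studied for cell adhesion, read 24.8 and 30 in 4T1-S, against 22.2 and 26.4 in 4T1-A, with overlapping groups (0.17 ± 0.21, 95% interval -0.32 to 0.66, limma adjusted p = 0.659). Adam8, known from leukocytes and from invasive breast carcinoma, read 12.9 and 12.7 in 4T1-S, against 23.5 and 19 in 4T1-A. Its groups were separate, but the difference of -0.73 ± 0.20 (95% interval -1.2 to -0.26) did not pass with an adjusted p of 0.0877, and it did with scaling by the array median (-1.02, adjusted p = 0.032).

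Adam17, which releases tumour necrosis factor and several ligands of the epidermal growth factor receptor, gave 0.30 ± 0.20 (limma adjusted p = 0.384) and 0.19 ± 0.20 (0.595) with its 2 probes. Its stronger probe read 3.16 and 3.59 in 4T1-S, against 2.52 and 2.96 in 4T1-A. Adam10, the main sheddase of Notch, read 0.264 and 0.212 in 4T1-S, against 0.391 and 0.221 in 4T1-A, with overlapping groups (-0.31 ± 0.29, adjusted p = 0.549). Adam15, found at epithelial junctions, gave -0.10 with either probe (adjusted p = 0.792 and 0.828). Adam19, a sheddase of neuregulins, gave -0.69 ± 0.26 (0.154) and -0.33 ± 0.19 (0.318). Adam12, which sheds ligands of the epidermal growth factor receptor, gave 0.50 ± 0.20 (0.18), and Adam28, known from lymphocytes and carcinomas, 0.51 ± 0.23 (0.205). Adam33, linked to airway remodelling in asthma, was above background in 4T1-A only. It read 0.0627 and 0.0534 in 4T1-S, against 0.0819 and 0.0704 in 4T1-A, at least 1.29-fold lower but not past the threshold (adjusted p = 0.269).

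Among the ADAMs that lack protease activity and act in adhesion, mainly in the nervous system, 4 probes were tested. Adam23 read 0.0982 and 0.111 in 4T1-S, against 0.0545 and 0.064 in 4T1-A, without overlap, and its difference of 0.82 ± 0.20 had a limma adjusted p of 0.0661. With 1 probe per gene it passed (limma adjusted p = 0.0482). This probe was above background on only 1 of the 4T1-A arrays and entered the test through 4T1-S alone. The other Adam23 probes were detected on no array. The 3 Adam11 probes gave differences between 0.13 and 0.36. Of 25 probes for ADAMs mainly of the testis and other ADAMs, 18 were detected on no array and 6 were tested. Adam3, a sperm protein, read 0.0552 and 0.0673 in 4T1-S, against 0.0971 and 0.13 in 4T1-A (-0.88 ± 0.23, limma adjusted p = 0.0748), and Adam18 gave -0.75 ± 0.24 (0.119). Both entered the test through 4T1-A alone, each above background on only 1 of the 4T1-S arrays. Adam21, Adam24, Adam25 and Adam26a had differences between 0.38 and 0.63, none of which passed.

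No TIMP probe passed among the 5 tested, against 4.52% of all probes tested. An unadjusted limma p under 0.05 was found for 2, both higher in 4T1-S, against 6011 of all 23690 probes tested. Timp2, which blocks MMPs and also takes part in activating the Mmp2 precursor with Mmp14, read 129 and 146 in 4T1-S, against 143 and 125 in 4T1-A. The groups overlapped, with a difference of 0.04 ± 0.20 (95% interval -0.42 to 0.5, limma adjusted p = 0.93). Timp1, the inducible secreted inhibitor, read 74.8 and 82.6 in 4T1-S, against 51.1 and 48.5 in 4T1-A with probe A_52_P87713. Both 4T1-S arrays were above both 4T1-A arrays, and the difference of 0.66 ± 0.19 (95% interval 0.22 to 1.1) had an adjusted p of 0.0944. Fitting with an intensity trend and robust estimates, it passed (0.66, adjusted p = 0.039). The second Timp1 probe read 15.8 and 15.6 in 4T1-S, against 11.6 and 7.98 in 4T1-A (0.71 ± 0.23, adjusted p = 0.119). The remaining Timp1 probe read 2.45 and 1.84 in 4T1-S, against 2.12 and 1.47 in 4T1-A, with overlap (0.26 ± 0.25, adjusted p = 0.556).

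Timp4 was faint, at 0.08 and 0.153 in 4T1-S, against 0.118 and 0.11 in 4T1-A (-0.04 ± 0.31, limma adjusted p = 0.95), with both 4T1-A arrays between the 4T1-S arrays. Timp3, which is bound to matrix and is the main inhibitor of Adam17 and the aggrecanases, was above background on 4T1-A replicate 2 alone. It read 0.0487 and 0.0562 in 4T1-S, against 0.0516 and 0.0702 in 4T1-A, and was not tested. Across all members, 11 genes had more than 1 tested probe, and the probes gave the same sign for 10 of them, with a median spread of 0.29 on the log2 scale. Mmp9 was the gene with opposite signs.

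Genes that act on these proteases, or on which they act, were taken from lists of the pathway. Of 22 tested probes for the activation and inhibition of secreted proteases, 2 were higher, 1 was lower and 19 did not pass (13.6% called, against 4.52% of all probes tested, with a median of 0.16). Pcolce, which enhances the trimming of procollagen by Bmp1, read 60 and 93.3 in 4T1-S, against 15.7 and 32.8 in 4T1-A (1.72 ± 0.37, limma adjusted p = 0.0467), with wide spread within each sub-line but no overlap. Pcsk5, a proprotein convertase, had 1 tested probe of 6, above background on both 4T1-S arrays and neither 4T1-A array, at 0.0845 and 0.0835 in 4T1-S, against 0.0411 and 0.0416 in 4T1-A, at least 1.68-fold higher (adjusted p = 0.0258). Pcsk6, a related convertase that can remove propeptides, read 0.262 and 0.268 in 4T1-S, against 1.37 and 1.34 in 4T1-A (-2.36 ± 0.19, adjusted p = 0.000497). Its other probe gave -0.18 ± 0.22 (adjusted p = 0.65), so the Pcsk6 probes did not give like values.

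Of 39 tested probes for proteins that ADAMs shed, 1 was higher and 3 were lower, and 35 did not pass (10.3% called, against 4.52% of all probes tested, with a median of 0.04). Icam1, an adhesion molecule for leukocytes, read 1.09 and 1.31 in 4T1-S, against 0.418 and 0.393 in 4T1-A (1.55 ± 0.20, limma adjusted p = 0.00565). Cdh1, E-cadherin, read 2.13 and 2.3 in 4T1-S, against 4.72 and 4.81 in 4T1-A (-1.11 ± 0.19, 0.0198). Dll1, a Notch ligand, read 0.336 and 0.374 in 4T1-S, against 0.687 and 0.793 in 4T1-A (-1.06 ± 0.20, 0.0289). The other probe called lower was one of Alcam, an adhesion molecule (-0.97, 0.038). The 10 tested probes for partners that guide Adam10 and Adam17 held 0 calls, against 4.52% of all probes tested. An unadjusted limma p under 0.05 was found for 2 of them, both higher, against 6011 of all 23690 probes tested. The strongest of the 10 was one of Frmd8, which stabilises the iRhom proteins that carry Adam17. It read 25.5 and 29.2 in 4T1-S, against 30.4 and 30.8 in 4T1-A (-0.16 ± 0.19, limma adjusted p = 0.639).

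Of 8 tested probes for ADAMTS-like proteins and proteoglycan substrates, 2 were higher and 0 lower (25% called, against 4.52% of all probes tested, with a median of 0.59), and both were probes of Adamtsl5, a matrix protein with thrombospondin repeats and no protease domain. Adamtsl5 read 0.539 and 0.571 in 4T1-S, against 0.171 and 0.161 in 4T1-A with one probe (1.74 ± 0.19, limma adjusted p = 0.00245), and a second gave 1.46 ± 0.21 (0.00967). Another Adamtsl5 probe, above background in 4T1-S only, was at least 1.83-fold higher there and did not pass (0.0824). Of 4 tested probes for other metalloproteases of related families, 0 passed. An unadjusted limma p under 0.05 was found for 3 of these 4, all higher, against 6011 of all 23690 probes tested. Bmp1, which trims the carboxy-terminal propeptide of procollagens, read 48.9 and 45.3 in 4T1-S, against 31.4 and 33.7 in 4T1-A (0.53 ± 0.19, limma adjusted p = 0.142).

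Markers of the labelled cell type were present. All 6 mammary carcinoma markers were above background on all 4 arrays, with a summed level of 191 to 228 in 4T1-S, against 240 to 249 in 4T1-A, and 3 of them, Krt14, Cdh1 and Epcam, were called lower in 4T1-S. Krt8 and Krt18, neither of them called, made up most of this sum. Epcam read 0.181 and 0.177 in 4T1-S, against 2.12 and 2.86 in 4T1-A. Krt14 read 1.91 and 2.23 in 4T1-S, against 8.06 and 9.18 in 4T1-A. Krt5 was faint and went the other way without a call (0.0975 and 0.104, against 0.0785 and 0.0626). Of 7 macrophage markers, 4 were above background on all arrays, with a sum of 3.76 to 3.98 in 4T1-S, against 2.15 to 2.25 in 4T1-A, with Itgam and Adgre1 above background on none. Cd14, the macrophage marker called higher, made up most of this sum at 3.24 and 3.03 in 4T1-S, against 1.35 and 1.35 in 4T1-A. Without it, a choice made after its values were seen, the other 6 summed to 0.738 and 0.735 in 4T1-S, against 0.804 and 0.896 in 4T1-A. Cd68, the strongest of these 6, read 0.387 and 0.313 in 4T1-S, against 0.533 and 0.605 in 4T1-A, and was not called. Csf1r, Lyz2, Ptprc, Itgam and Adgre1 went the other way, with higher means in 4T1-S and no call. Of 8 fibroblast markers, 2 were above background on all arrays and Pdgfrb and Lum on none. Their sum was 1.41 to 1.45 in 4T1-S, against 0.73 to 0.96 in 4T1-A. Col1a1 was called higher, at 0.112 and 0.149 in 4T1-S, against 0.0271 and 0.0416 in 4T1-A. Its probe was above background on neither 4T1-A array and entered the test through 4T1-S alone, a route that favours higher values there. Sums for 4 neutrophil, 4 endothelial and 3 T cell markers stayed at or under 0.238 in 4T1-S and 0.203 in 4T1-A, with S100a8, S100a9, Pecam1, Cdh5, Kdr, Cd3g and Cd2 above background on none. The part of the macrophage and fibroblast markers in the differences above was not tested. In bulk RNA, fewer cells that express a gene and less RNA per cell cannot be told apart.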

How the data were processed

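Total RNA of 4 samples was labelled with Cy3 and hybridised to 1-colour Agilent expression arrays, 2 for 4T1-S and 2 for 4T1-A. Per the file headers, 1 slide and 1 scan held all 4 arrays, with 4T1-S at positions 3 and 4 and 4T1-A at positions 1 and 2, so slide position and sub-line cannot be told apart. Spot intensity values were extracted by the authors with Agilent Feature Extraction 9.1, per the submitters' processing notes, and are background-subtracted but not scaled between arrays. Values in the deposited series matrix matched a linear ratio of processed intensity to each array's 75th percentile, rounded to 3 decimals, within 5e-04 on 3 arrays. For 4T1-A replicate 1, whose intensity file holds 3 significant digits, the largest gap was 1.04. The scale and centring of the matrix are thus inferred, as none is stated, and column medians were 0.098 and 0.091 for 4T1-S and 0.078 and 0.076 for 4T1-A.

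From the processed intensity, log2 values minus the array's 75th percentile were computed over spots other than controls, and spots of a probe were averaged. That percentile was 405 and 498 in 4T1-S, against 468 and 577 in 4T1-A. Outlier spots (5 to 9 per array) were left out. Each probe was tested on its own with limma 3.58.1 in R 4.3.3 (lmFit and eBayes, 2-sided, 2 residual and 5.46 prior degrees of freedom), with the package data.table (version 1.17.8) and Benjamini-Hochberg adjustment over all probes tested. Replicate arrays correlated at 0.991 in either sub-line. The number of arrays limits the precision. The procedure was also run on simulated data with noise independent between arrays, so those data hold no likeness between same-numbered arrays. No result here rests on that run.

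Gene names came from the file of 4T1-S replicate 2, since the file of 4T1-A replicate 1 holds some names rewritten like dates, none of them a member's. RefSeq accessions matched 96 of the 123 member probes and symbols 27, and 122 keep their name. Named with values on every array were members called, members detected in 1 sub-line only, the 2 genes of each subfamily with the strongest probe, all Timp genes, and of each pathway list up to 2 calls per direction of at least 2-fold or else its strongest probe. The other genes given with values were chosen after their values were seen. The members, lists and tests were chosen with earlier results of these data known. Alternatives changed the background correction, scaling, detection filter, fitting, probe summary, replicate block and the arrays included. Normexp correction was run with an offset of 50 intensity units, which brings log2 values of faint probes closer together. The slide as a block was not run, as there was 1 slide.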

Additional observations from a re-analysis of the deposited data

How the results depend on the processing

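The 6 member calls (1 higher, 5 lower) and the 1070 calls over all probes were recomputed under 14 alternatives, 1 choice at a time except that the intensity trend and robust fitting were changed jointly. Normexp background correction with its offset of 50 gave 3 member calls (2 lower) and 535 over all probes. Scaling to the array median gave 10 member calls, 9 of them lower, and 1387 over all probes, 1162 of them lower. Testing without a filter on background gave 3 member calls, 0 higher and 3 lower, and 302 over all probes. Requiring detection on all 4 arrays gave 3 member calls (2 lower) and 584 over all probes. Fitting with an intensity trend and robust estimates gave 2 member probes higher, and so did taking 1 probe per gene. Leaving out 1 array at a time gave 3 to 10 member calls, 0 to 3 higher and 3 to 7 lower, and 419 to 1967 calls over all probes. Dropping 4T1-S replicate 1 gave 3 member calls and dropping 4T1-S replicate 2 gave 4, while dropping 4T1-A replicate 1 gave 7 and dropping 4T1-A replicate 2 gave 10. With 1 array left in a sub-line, that array is assumed to vary like those of the other. Quantile normalization and the deposited series table each gave the same 6 genes.

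The fit with the replicate number as a block gave 20 member calls, 9 higher and 11 lower, and 4664 over all probes. The deviations of same-numbered arrays correlated at 0.44 over 23690 probes. With 2 pairs and no label that ties a number to a shared culture or day, what same-numbered arrays share is not known. The main test makes no use of a possible pairing.

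The median difference of all tested probes was 0.11, and -0.18 with scaling to the median. The share of calls that were higher in 4T1-S was 47.9%, against 16.2% with scaling to the median, 34.6% with quantile normalization and 64.4% with the block.

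Of 317 recomputed values of 23 named member probes, 21 changed sign, none of them of the 6 called probes, and 12 lost and 10 gained a call. The cause was not tested. With normexp correction the value was 0.10 for Adam33, 0.01 for the second Mmp1a probe, -0.01 for the stronger Mmp14 probe, -0.09 for Timp2 and 0.21 for Timp4. With scaling to the median it was -0.12 for Adam9, -0.20 for the second Adamts8 probe, -0.19 for the stronger Mmp9 probe, -0.15 for the stronger Mmp14 probe, -0.03 for the weakest Timp1 probe and -0.25 for Timp2. Quantile normalization gave -0.05 for Timp2. With 1 probe per gene Mmp9 gave 0.10, and with probes averaged -0.16. Leaving out 1 array at a time, values ran from -0.07 to 0.27 for the stronger Mmp9 probe, -0.30 to 0.59 for the stronger and -0.12 to 0.76 for the second Mmp14 probe, -0.06 to 0.13 for Timp2 and -0.51 to 0.43 for Timp4. The sign changed without 4T1-S replicate 1 for Mmp9, the second Mmp14 probe and Timp4, without 4T1-S replicate 2 for Timp2 (-0.05), without 4T1-A replicate 1 for Timp4 (0.01) and without 4T1-A replicate 2 for the stronger Mmp14 probe and Timp2.

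Calls lost beside those in the report were Adamts9 (adjusted p = 0.133), Mmp10 (0.0808) and Mmp15 (0.0761) in limma without the filter, and Mmp1a (0.17) with 1 probe per gene. Signal over background allowed a test for 51 of the 123 member probes. Detection failed on every array for 63 of the 123, for which no difference could be measured. Mmp1a, Adamts5 and Adam33 each had a tested probe with only a bound in 4T1-S.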
